A study of Oryza sativa with 23 samples.

Results

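Root RNA of rice under drought was compared between 2 genetic backgrounds on 12 of the 23 arrays of the series. The IR64 background held OsNAM Event 2, 1 transgenic event in the cultivar IR64 that overexpresses the NAC transcription factor gene OsNAM12.1 of the cultivar Way Rarem, and IR64 itself. The Vandana background held NIL-481-B, the near isogenic line of Vandana with that number, which carries the drought yield locus qDTY12.1 of Way Rarem, and Vandana itself. Each of the 4 genotypes had 3 drought arrays, so that each background had 6. All plants had grown in soil-filled cylinders and were sampled 25 days after sowing, in soil that had dried down from 75% of field capacity. Arrays were placed in a background by their labelled cultivar alone. Each background is thus 1 cultivar with 1 line derived from it, and the sources do not say whether roots of several plants were pooled on an array, so p-values measure the spread between these arrays.

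IR64 is a semi-dwarf cultivar of irrigated lowland rice, and Vandana is an upland cultivar grown in rainfed fields. Rice cultivars differ in which copies of a gene they carry, and genes for intracellular immune receptors of the NB-LRR type, which lie in clusters and often work in pairs, are among the most variable. The array holds 1 short probe for nearly every gene model of a reference genome. A probe can therefore be dim in a cultivar because the transcript is scarce, because the gene is missing or because its sequence does not match the probe, and these cannot be told apart here. In whole roots, fewer cells of a type and less RNA per cell cannot be told apart either.

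Levels are log2 signals after quantile normalization, and a difference is the mean of the IR64 background minus the mean of the Vandana background on that scale. Between 39.3% and 61.0% of spots lay well above background on the arrays of the IR64 background, and between 52.5% and 58.8% on those of the Vandana background. Arrays correlated at 0.917 to 0.978 within a background and at 0.893 to 0.956 between backgrounds, across probes. All 5 root markers of the list, among them the silicon transporters Lsi1 and Lsi2 and the cortex gene RCc3, were well above background on all 12 arrays. Leaf markers were present as well: the summed level of 7 genes lay between 7.32 and 15.61 in the IR64 background and between 8.38 and 16.23 in the Vandana background. It was above 15 on 4 arrays, IR64 replicate 1, OsNAM Event 2 replicate 2 and NIL-481-B replicates 2 and 3. Of the leaf markers, 0 passed the test. In the IR64 background 5 of 7 had lower means and 2 had higher means. Their median difference was -3.49, against 0.02 over all probes. The small subunit gene of Rubisco RbcS2 had 3.67, 4.96 and 5.74 (lowest, median and highest) in the IR64 background, against 5.32, 8.24 and 13.13 in the Vandana background. Without those 4 arrays, 47 loci were called, 46 of them among the 395 described next. All 395, which were chosen with those arrays included, still differed over 2-fold in the same direction.

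Under drought, 395 loci (0.747% of 52901 probes) differed between the IR64 and the Vandana background by more than 2-fold at a Bonferroni-adjusted p below 0.05. Of these, 206 (0.389%) were higher and 189 (0.357%) were lower in the IR64 background. The median difference was 4.11 among loci that were higher and -4.21 among those that were lower, against 0.015 over all probes. In all, 196 of the higher loci and 183 of the lower loci differed over 4-fold, and 31 and 34 differed over 64-fold. The arrays of the backgrounds did not overlap for 203 of the 206 higher loci and 186 of the 189 lower loci. Over all probes, arrays did not overlap for 3.91%, 2.06% higher and 1.84% lower in the IR64 background. The 12 arrays lay on 4 slides, 3 of which held both backgrounds. With the slide as a block, 174 loci were called (92 higher, 82 lower). Within the 3 slides the called loci, chosen on these same arrays, had medians of 4.21, 4.19 and 3.9 (higher) and -4.2, -4.1 and -4.09 (lower). Their sign was the same on all 3 for 393 of 395, against 37.6% of all probes, which their selection largely fixes. By the less strict Benjamini-Hochberg adjustment the number was 1973 probes (3.73%), 1077 (2.04%) higher and 896 (1.69%) lower. In the rest of the text an adjusted p is this Benjamini-Hochberg value from limma over all probes.

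At most called loci, 1 background had no array with a signal well above background. No array of the Vandana background was well above background for 128 of the 206 higher loci, and no array of the IR64 background for 134 of the 189 lower loci. At 90 higher loci and 125 lower loci the brighter background was detected on 6 of 6 arrays and the other on 0 of 6. Over all probes, 111 had this pattern with the IR64 background brighter and 237 with the Vandana background brighter. IR64 replicate 2 had the fewest spots well above background of the drought arrays (39.3%), and its effect on these counts was not tested. Where a background had no array well above background, a difference has only a lower bound. The bound sets the mean of the brighter background against, on each array of the other, the higher of the lowest signal well above background and the probe's own signal. The bound had a median of 12.4-fold over 128 higher loci and 12.5-fold over 132 lower loci. These bounds hold for the background correction of the processed signal only. With another correction, normexp, 258 of the 395 called loci still differed over 2-fold the same way. Loci measured on all 12 arrays made up 42 of the higher and 17 of the lower loci, with median differences of 2.31 and -2.72.

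**Figure D1:**
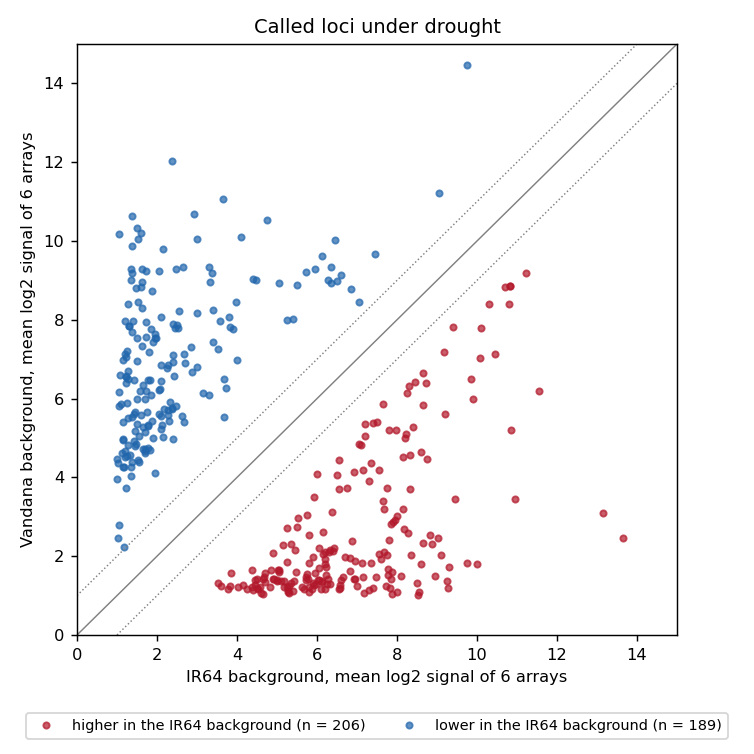
Mean log2 signal of the 395 called loci in the IR64 background (horizontal) and in the Vandana background (vertical), 6 drought arrays each. The solid line marks equal levels and the dotted lines 2-fold. The dimmer background had a median level of 1.82 in both directions, and the brighter one of 6.72 (IR64 background) and 6.8 (Vandana background).

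The largest difference in favour of the IR64 background was at LOC_Os05g10414. Its level was 13.62, 14.06 and 13.74 in OsNAM Event 2 and 13.81, 13.89 and 12.73 in IR64, against 1.30, 3.04 and 1.62 in NIL-481-B and 1.29, 2.99 and 4.55 in Vandana. All 6 arrays of the IR64 background were far above all 6 of the Vandana background, of which 1 was well above background. The difference was 11.18 ± 0.53 (SE) with an adjusted p of 1.09e-06. LOC_Os06g01760 followed, with 12.83, 13.21 and 13.35 (lowest, median and highest) in the IR64 background, against 1.83, 2.85 and 4.93 in the Vandana background. Its difference was 10.04 ± 0.50 (SE) with an adjusted p of 1.52e-06. The lowest array of the IR64 background lay 8.18 and 7.90 log2 units above the highest of the Vandana background at these loci.

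The next 6 loci that were higher in the IR64 background had 0 of 6 arrays of the Vandana background well above background. LOC_Os03g01420 had 9.78, 9.97 and 10.28 (lowest, median and highest) in the IR64 background, against 1.28, 1.72 and 2.60 in the Vandana background, at least 201-fold higher (adjusted p = 3.91e-08). LOC_Os08g08360 had 8.94, 9.25 and 9.62 against 1.13, 1.22 and 1.27, at least 132-fold higher (adjusted p = 1.1e-09). LOC_Os08g08650 on the same chromosome had 9.08, 9.18 and 9.52 against 1.22, 1.34 and 1.61, at least 129-fold higher (adjusted p = 1.1e-09). At both, the Vandana background stayed at the low end of the scale on all 6 arrays. LOC_Os06g30620, LOC_Os03g57799 and LOC_Os04g58610 were at least 157-fold, 119-fold and 77.7-fold higher. These 8 loci have no description in the sources used here.

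The 8 loci with the largest differences in favour of the Vandana background had 0 of 6 arrays of the IR64 background well above background. LOC_Os11g14544 had 3.07, 1.61 and 3.55 in OsNAM Event 2 and 1.36, 2.00 and 2.66 in IR64, against 11.74, 11.91 and 11.74 in NIL-481-B and 13.04, 11.98 and 11.80 in Vandana. It was at least 520-fold lower in the IR64 background (adjusted p = 2.46e-07). LOC_Os05g46890 had 1.06, 1.11 and 2.83 (lowest, median and highest) in the IR64 background, against 10.27, 10.57 and 11.40 in the Vandana background, at least 257-fold lower (adjusted p = 1.09e-07). LOC_Os05g46800, whose locus number lies close by on chromosome 5, had 1.28, 1.38 and 2.72 against 9.87, 10.11 and 10.95, at least 194-fold lower (adjusted p = 7.55e-08). OsNAM Event 2 replicate 3 was the highest array of the IR64 background at both. LOC_Os06g49930, LOC_Os11g19149, LOC_Os01g71540, LOC_Os11g29110 and LOC_Os10g19970 were lower with bounds between 108-fold and 221-fold. These loci have no description in the sources used here either.

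**Figure D2:**
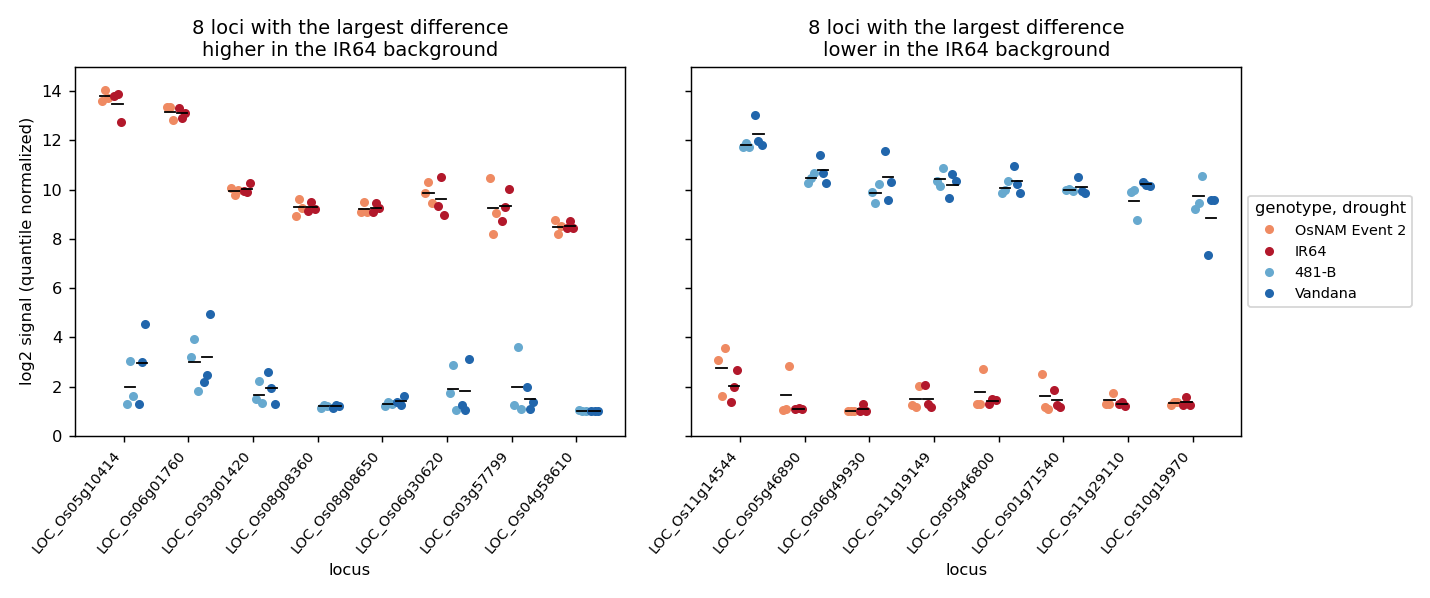
Log2 signal on each drought array at the 8 loci with the largest differences in each direction. Points are arrays, coloured by genotype, and bars are means of 3 arrays. At every locus shown, the 6 arrays of the IR64 background and the 6 of the Vandana background fall into separate ranges.

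Among loci measured on all 12 arrays, singled out after their values were seen, LOC_Os07g01990 had 10.64, 10.77 and 11.26 (lowest, median and highest) in the IR64 background and 4.14, 5.10 and 6.36 in the Vandana background. That is a difference of 5.63 ± 0.34 (SE; adjusted p = 6.43e-06). LOC_Os08g06415 ran the other way, with 9.12, 9.89 and 10.27 in the IR64 background and 13.83, 14.42 and 15.25 in the Vandana background. Its difference was -4.72 ± 0.28 (SE; adjusted p = 6.03e-06). Both probes gave a higher signal in 1 background and were still well above background in the other.

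A function was available for few called loci, since the files name loci only by their identifier. Of the 395, 10 have an entry in the study's supplementary list of genes, and for 6 of them it names a function. The immune receptor gene RGA5 belongs to a gene list used here. Among loci higher in the IR64 background, LOC_Os11g35274 encodes a protein with a kinase domain, placed among wall-associated kinases, which sit in the plasma membrane and bind pectin of the cell wall. It had 6.17, 6.59 and 6.92 (lowest, median and highest) in the IR64 background and 1.18, 1.21 and 1.5 in the Vandana background, at least 20.1-fold higher (adjusted p = 3.38e-08). OsWAK125 (LOC_Os12g29430), a receptor-like protein of the same family, had 5.82, 6.90 and 7.74 against 1.45, 2.13 and 3.95. Its difference was 4.49 ± 0.34 (SE; adjusted p = 2.92e-05). In the Vandana background it was well above background on 1 of 6 arrays, and NIL-481-B averaged 3.21 where Vandana averaged 1.56. LOC_Os07g35130, the F-box protein gene OsFBX240, whose protein family selects targets for ubiquitin-dependent breakdown, was at least 11.2-fold higher (5.47 to 6.0 in the IR64 background against 1.03 to 2.46 in the Vandana background; adjusted p = 2.14e-07).

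Among described loci that were lower in the IR64 background, LOC_Os11g15340 encodes a SAM-dependent carboxyl methyltransferase, a family that methylates small acids such as salicylic acid. It had 1.18, 1.67 and 2.13 (lowest, median and highest) in the IR64 background and 6.05, 7.38 and 8.39 in the Vandana background, at least 27.9-fold lower (adjusted p = 7.73e-06). LOC_Os02g54980 is described as pheophorbide a oxygenase, an enzyme of chlorophyll breakdown. It had 3.76, 4.49 and 4.93 against 8.07, 8.69 and 10.47, a difference of -4.63 ± 0.30 (SE; adjusted p = 1.07e-05). Its 2 highest values were those of NIL-481-B replicates 2 and 3, which were also among the 4 arrays with the highest leaf markers. Without those 4 arrays its difference was -4.25. LOC_Os03g48320, described as an RPP13-like disease resistance protein, was measured on all 12 arrays, with 6.06, 6.54 and 6.76 against 8.57, 8.89 and 9.74. Its difference was -2.47 ± 0.21 (SE; adjusted p = 6.44e-05).

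Of the gene lists, the one of disease resistance and defence genes held the most calls. Of its 19 genes measured, 2 were higher and 3 were lower in the IR64 background at over 2-fold and an adjusted p below 0.05, against 2.04% and 1.69% of all probes. The list had a median difference of -0.13, against 0.02 over all probes. Like the other gene lists, it was chosen with earlier results of these data known. Its count is therefore no independent evidence that defence genes differ more often than others. Of the 5, 4 are the members of 2 NB-LRR pairs on chromosome 11, and within each pair the members differed in opposite directions. RGA4 (LOC_Os11g11790), the member of the RGA4/RGA5 pair that triggers cell death, had 8.67, 8.71 and 8.78 (lowest, median and highest) in the IR64 background and 7.38, 7.67 and 8.06 in the Vandana background, a difference of 1.01 ± 0.13 (SE; adjusted p = 0.00121). RGA5 (LOC_Os11g11810), the member that binds the effectors of the blast fungus, had 1.38, 2.44 and 3.09 against 6.50, 6.89 and 7.55, at least 18.2-fold lower (adjusted p = 5.69e-06). RGA5 was well above background on 0 of 6 arrays of the IR64 background and on 6 of 6 of the Vandana background.

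In the Pik pair, Pik-1 (LOC_Os11g46200), which binds the blast effector AVR-Pik, had 1.31, 3.18 and 4.96 (lowest, median and highest) in the IR64 background and 5.01, 5.93 and 6.77 in the Vandana background, at least 6.16-fold lower (adjusted p = 0.00712). Its partner Pik-2 (LOC_Os11g46210) had 6.13, 6.75 and 6.95 against 3.17, 4.39 and 6.42, a difference of 2.15 ± 0.41 (SE; adjusted p = 0.0156). The arrays of Pik-2 overlapped through Vandana replicate 1 (6.42). Neither gene passed the threshold when IR64 was set against Vandana without the derived lines (adjusted p = 0.183 and 0.369). Without the 4 arrays with high leaf markers, RGA4 (LOC_Os11g11790; a difference of 0.98, adjusted p = 0.138), Pik-1 (adjusted p = 0.0758) and Pik-2 (adjusted p = 0.237) did not pass. Pik-1 and Pik-2 also missed it in a fit of all 23 arrays, and Pik-1 missed it with the slide as a block (adjusted p = 0.0529). The fifth gene, PR1b (LOC_Os01g28450), which encodes a pathogenesis-related protein, had 1.77, 2.81 and 3.59 against 3.36, 5.81 and 6.71, a difference of -2.66 ± 0.64 (SE; adjusted p = 0.0478). Its arrays overlapped, and its adjusted p lay above 0.05 when any of 10 of the 12 arrays was left out, and with the slide as a block (0.17). The other defence genes did not pass the test. Among them were Pi-ta (-0.14 ± 0.47, SE) and Pi21 (-0.02 ± 0.28, SE), genes that affect blast resistance, and the immune regulator WRKY45 (-0.78 ± 0.43, SE).

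**Figure D3:**
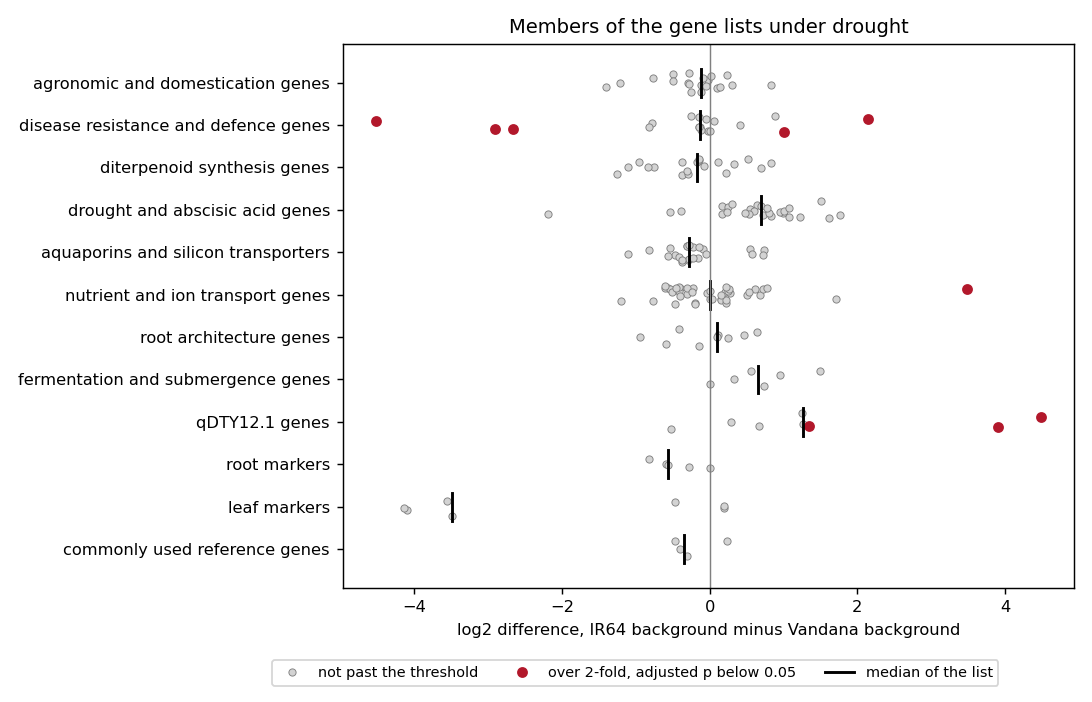
Log2 difference under drought, IR64 background minus Vandana background, of each measured member of the 12 gene lists. Filled red points passed over 2-fold and an adjusted p below 0.05, and bars are list medians. The points past the threshold lie in the defence list (5), the qDTY12.1 list (3) and the nutrient list (1).

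Called loci were spread over all 12 chromosomes, but unevenly. Locus identifiers give the chromosome and, by their number, the order along it in the reference genome. Chromosome 11 had the highest share, with 66 of 3930 loci called (1.68%, against 0.747% of all probes), 30 higher and 36 lower in the IR64 background. Chromosome 6 followed with 50 of 4456 (1.12%), chromosome 9 with 35 of 3195 (1.1%) and chromosome 8 with 36 of 3935 (0.915%). The lowest shares were those of chromosome 10, with 15 of 3250 (0.462%), and chromosome 1, with 30 of 6313 (0.475%). On chromosome 1, 7 loci were higher and 23 were lower in the IR64 background, and on chromosome 9 the counts were 21 and 14. With Benjamini-Hochberg adjustment chromosome 11 again had the highest share (6.18%, against 3.73% of all probes) and chromosome 3 the lowest (2.2%).

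**Figure D4:**
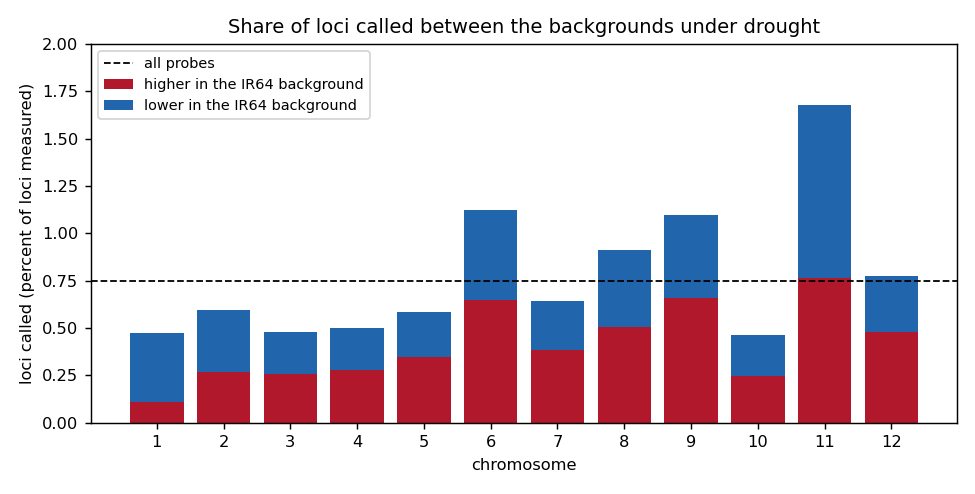
Loci called under drought as a percentage of the loci measured on each chromosome, split by direction, with the share over all probes (0.747%) as a dashed line. Chromosomes 6, 8, 9, 11 and 12 stand above the line, and chromosome 11 is highest at 1.68%.

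At a finer scale, each chromosome was cut into windows of 50 consecutive loci. Of 1059 windows, 781 held no called locus, and 3 windows held 6. On chromosome 9, the window LOC_Os09g15420 to LOC_Os09g15920 held 6 loci that were higher in the IR64 background and 0 that were lower. Its largest difference was at LOC_Os09g15639, with 6.99, 7.35 and 7.9 (lowest, median and highest) in the IR64 background and 1.08, 1.12 and 1.67 in the Vandana background, at least 36-fold higher. On chromosome 6, LOC_Os06g50400 to LOC_Os06g50980 held 5 higher and 1 lower locus. The 5 higher loci had nearly the same difference, 1.87 to 2.02, and LOC_Os06g50670 and LOC_Os06g50706 had nearly the same median levels (10.74 and 10.74 in the IR64 background, 8.88 and 8.88 in the Vandana background). Signals of near-identical gene copies cannot be told apart on an array, and whether these loci are such copies was not tested. On chromosome 11, LOC_Os11g28840 to LOC_Os11g29420 held 4 higher and 2 lower loci, 2 of the higher ones beside each other. There LOC_Os11g29050 had 7.36, 8.0 and 8.54 in the IR64 background and 1.07, 1.08 and 1.11 in the Vandana background, at least 53.9-fold higher, while LOC_Os11g29110, named above, was at least 162-fold lower. The window LOC_Os11g11570 to LOC_Os11g12170, which contains RGA4 and RGA5, held the highest count by Benjamini-Hochberg adjustment, 5 higher and 7 lower loci. That is 24.0% of its loci, against 3.73% of all probes. A window further along, LOC_Os11g14860 to LOC_Os11g15420, held 4 lower and 0 higher loci (8.0%), among them the methyltransferase gene LOC_Os11g15340.

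Of the 395 loci, 39 lay beside a locus called in the same direction, in 1 run of 3 and 18 runs of 2. The run of 3 was on chromosome 11 and was higher in the IR64 background. LOC_Os11g44580 had 5.36, 5.61 and 6.25 (lowest, median and highest) in the IR64 background and 1.31, 1.42 and 1.71 in the Vandana background, at least 11.3-fold higher. LOC_Os11g44590 was at least 8.15-fold higher, and LOC_Os11g44600 at least 21.5-fold. None of the 3 was well above background on any array of the Vandana background. Runs of 2 included LOC_Os01g39670 and LOC_Os01g39680, which were lower in the IR64 background, at least 25.2-fold and 13.1-fold. At LOC_Os02g20770 and LOC_Os02g20780 the bounds were 2.83-fold and 15.6-fold lower. With Benjamini-Hochberg adjustment there were 12 runs of 3 or more, the longest with 5 loci that were higher in the IR64 background, LOC_Os05g41510 to LOC_Os05g41550.

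The qDTY12.1 region of chromosome 12 was of interest because NIL-481-B carries it from Way Rarem. Between the outermost listed genes, LOC_Os12g26940 and LOC_Os12g29520, 200 loci were measured. Of these, 4 (2.0%, against 0.747% of all probes) were called, all higher in the IR64 background. The 4 were LOC_Os12g27480, LOC_Os12g27800, LOC_Os12g27980 and OsWAK125. LOC_Os12g27980, described as a transposon protein, averaged 7.87 in OsNAM Event 2 and 7.67 in IR64, against 1.45 in NIL-481-B and 1.59 in Vandana, at least 46.4-fold higher. By Benjamini-Hochberg adjustment, 10 were higher and 8 were lower (9.0%, against 3.73%). In this region NIL-481-B carries the Way Rarem segment and Vandana its own, so the mean of the Vandana background joins different segments. Of the 200 loci, 12 differed over 2-fold between NIL-481-B and Vandana. Among the lower loci, LOC_Os12g28710 averaged 6.08 in NIL-481-B and 10.01 in Vandana, and LOC_Os12g28590 averaged 7.1 and 3.58.

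Of the 8 listed qDTY12.1 genes, 3 were higher and 0 were lower in the IR64 background, against 2.04% and 1.69% of all probes, and the list had a median difference of 1.26 (0.48 under normexp background correction). The list leaves out 5 of the 13 candidate genes that the study shortlisted, and it was drawn up with results of these arrays known, so that the count is no independent evidence of a direction. None of the 5, added after the values were seen, passed the test, and 4 had a difference below 0, from OsPOLE1912.1 (-1.02 ± 0.41, SE) to OsAH12.1 (-0.51 ± 0.18, SE). Over all 13 genes the median difference was 0.44. OsDR12.1 (LOC_Os12g27830), described as a dehydrogenase/reductase, had 3.57, 5.55 and 6.89 (lowest, median and highest) in the IR64 background and 1.22, 1.31 and 2.66 in the Vandana background, at least 8.48-fold higher (adjusted p = 0.0012). OsCDP12.1 (LOC_Os12g26940), which encodes a CHASE domain protein, had 6.39, 6.51 and 7.03 against 4.61, 5.36 and 5.72, a difference of 1.34 ± 0.22 (SE; adjusted p = 0.00632). The third was OsWAK125. Without the 4 arrays with high leaf markers, OsDR12.1 and OsCDP12.1 no longer passed (adjusted p = 0.149 and 0.19), nor did OsCDP12.1 when IR64 was set against Vandana alone (adjusted p = 0.12). OsNAM12.1, the gene that OsNAM Event 2 overexpresses, had 6.59, 7.48 and 7.65 in OsNAM Event 2 and 7.42, 6.98 and 5.16 in IR64, against 7.96, 7.36 and 6.90 in NIL-481-B and 6.17, 7.80 and 8.20 in Vandana. The ranges overlapped, and the difference was -0.52 ± 0.48 (SE; adjusted p = 0.737). Higher expression in OsNAM Event 2 than in IR64 was not detected at this probe (a difference of 0.72, adjusted p = 1), and the sources used here do not say whether the probe matches the Way Rarem transgene. The paper reports overexpression of the gene in roots of this event by quantitative PCR, at the heading stage and thus in older plants. OsGDP12.1 (1.27 ± 0.35; adjusted p = 0.0911), OsCESA1012.1 (1.25 ± 0.32; adjusted p = 0.0671), OsMtN312.1 (0.67 ± 0.19; adjusted p = 0.0915) and OsARF12.1 (0.29 ± 0.51; adjusted p = 0.895) did not pass the test (differences with SE). The OsCESA1012.1 probe was well above background on only 1 of 6 arrays in each background. The paper reports that Vandana lacks this gene.

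Genes that respond to drought and abscisic acid, the hormone that closes stomata and induces protective proteins when water is short, had higher means in the IR64 background without passing the test. Of 27 genes, 24 had a difference above 0 and 0 were called in either direction. The median difference was 0.69, against 0.02 over all probes. The dehydrin-type gene WSI724 had 11.5, 13.37 and 13.98 (lowest, median and highest) in the IR64 background and 10.43, 11.55 and 12.11 in the Vandana background, a difference of 1.77 ± 0.44 (SE; adjusted p = 0.0572). LEA3, which encodes a late embryogenesis abundant protein, had 12.96, 14.93 and 15.66 against 12.48, 13.03 and 14.54 (1.62 ± 0.47, SE; adjusted p = 0.105). NCED5, an enzyme gene of abscisic acid synthesis, had 5.39, 6.03 and 6.43 against 4.42, 4.99 and 5.66, a difference of 0.95 ± 0.22 (SE; adjusted p = 0.0409) that stayed under 2-fold. The salt and drought responsive lectin gene SalT ran the other way, with 9.75, 10.64 and 13.11 against 11.83, 13.09 and 14.87 (-2.19 ± 0.62, SE; adjusted p = 0.094). In all 4 genes the ranges of the backgrounds overlapped.

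The remaining lists gave 1 call. Of 43 nutrient and ion transport genes, 1 was called, a share near that of all probes (3.73%). The phosphate transporter gene PT6 (LOC_Os08g45000) was higher in the IR64 background, with 5.36, 6.28 and 6.71 (lowest, median and highest) against 1.29, 2.64 and 4.17 in the Vandana background. Its difference was 3.48 ± 0.55 (SE; adjusted p = 0.00467), and 3 of 6 arrays of the Vandana background were well above background. Without the 4 arrays with high leaf markers it did not pass (adjusted p = 0.113). Of 23 aquaporins and silicon transporters, which move water and silicic acid into and across the root, 0 were called, and 19 had a difference below 0, with a median of -0.28. The vacuolar aquaporin TIP2;1 had 9.97, 10.98 and 12.24 against 9.29, 12.74 and 13.48 (-1.1 ± 0.72, SE; adjusted p = 0.595). No gene was called among 6 fermentation and submergence genes (median difference 0.65), 9 root architecture genes (0.10), 19 diterpenoid synthesis genes (-0.17), 20 agronomic genes (-0.11) and 4 reference genes (-0.35).

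The study's supplementary list, which the authors drew from these arrays, holds descriptions for 551 of the loci measured. It is therefore no independent evidence of a direction, and its values are given as a description, in groups of described words chosen after the values were seen. Of the 551, 68 were higher and 16 were lower in the IR64 background by Benjamini-Hochberg adjustment (15.2%, against 3.73% of all probes), and 422 had a difference above 0. All 17 late embryogenesis abundant and dehydrin genes of that list had a difference above 0, with a median of 1.62, and 5 were called higher. LOC_Os08g23870, a group 1 late embryogenesis abundant protein gene, had 9.99, 11.51 and 12.19 (lowest, median and highest) in the IR64 background and 8.71, 9.23 and 10.04 in the Vandana background, a difference of 2.11 ± 0.41 (SE; adjusted p = 0.0164). LOC_Os06g21910, also of group 1, differed by 1.95 ± 0.46, and LOC_Os09g10620, described as seed maturation protein LEA 4, by 1.91 ± 0.44 (SE). On the well-watered arrays without that labelled Vandana replicate 2, the same 17 genes had a median difference of 0.14. That array, described below, was left out after its levels were seen. Of 56 transposon and retrotransposon loci, 17 were called higher and 5 were called lower. Of 4 described as NB-ARC or leucine-rich repeat proteins, 3 were called lower, among them LOC_Os11g35210 with a difference of -2.14 ± 0.41 (SE; adjusted p = 0.0151).

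Within a background, OsNAM Event 2 and IR64 differed at 1 locus by the same rule (0.00189% of probes, also by Benjamini-Hochberg adjustment). NIL-481-B and Vandana differed at 8 (0.0151%, and at 9, or 0.017%, by Benjamini-Hochberg adjustment). The first was LOC_Os08g06810, with means of 4.94 in OsNAM Event 2, 6.88 in IR64 and 1.32 in both NIL-481-B and Vandana. Of the 8 in the Vandana background, 5 lie on chromosome 3. LOC_Os03g16230 averaged 1.62 in NIL-481-B, against 7.11 in Vandana, 7.37 in OsNAM Event 2 and 7.33 in IR64. LOC_Os12g16290 averaged 10.41 in NIL-481-B, against 1.59 in Vandana, 9.83 in OsNAM Event 2 and 9.98 in IR64, and was low in Vandana alone. Of the 9 loci, 8 were also called between the backgrounds, so a difference between backgrounds can rest on 1 genotype. Among the called loci, 15 differed over 2-fold between NIL-481-B and Vandana, and 14 differed over 2-fold between OsNAM Event 2 and IR64.

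The same contrast was read on the well-watered arrays, normalized on their own. The well-watered soil was wetter for the IR64 lines than for the Vandana lines, and 1 of the well-watered arrays, that labelled Vandana replicate 2, had levels like those of the IR64 lines. The loci called higher under drought had a median level of 6.08 on that array, of 5.73 to 6.16 on the well-watered arrays of the IR64 lines and of 1.6 and 2.12 on the other 2 well-watered Vandana arrays. That array was singled out after its levels at these loci were seen. With all 11 arrays, 0 loci were called by limma when well watered (0 also by Benjamini-Hochberg adjustment, and 3869, or 7.31%, at an unadjusted p below 0.05). Without that array 123 were called (0.233%), and 713 (1.35%) by Benjamini-Hochberg adjustment. Of the 206 loci called higher under drought, 205 had the same sign and 190 differed over 2-fold the same way on all 11 arrays, with a median of 2.43, and 205 and 192 did without that array, with a median of 2.91. Of the 189 lower loci, 188 and 176 did on all 11 arrays, with a median of -2.71, and 188 and 183 without that array, with a median of -3.23. Over all probes, 4.52% differed over 2-fold the same way on 11 arrays and 5.19% on 10. With all 22 arrays normalized together, the difference under drought differed from that of well-watered plants by over 2-fold at an adjusted p below 0.05 for 9 of the 395 loci, and for 26 of all probes (0.0491%). LOC_Os03g48320 was one of the 9, with differences of -2.47 under drought and -4.49 when well watered in the separate fits, and 2.48 between them in the joint fit (adjusted p = 0.00747).

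**Figure D5:**
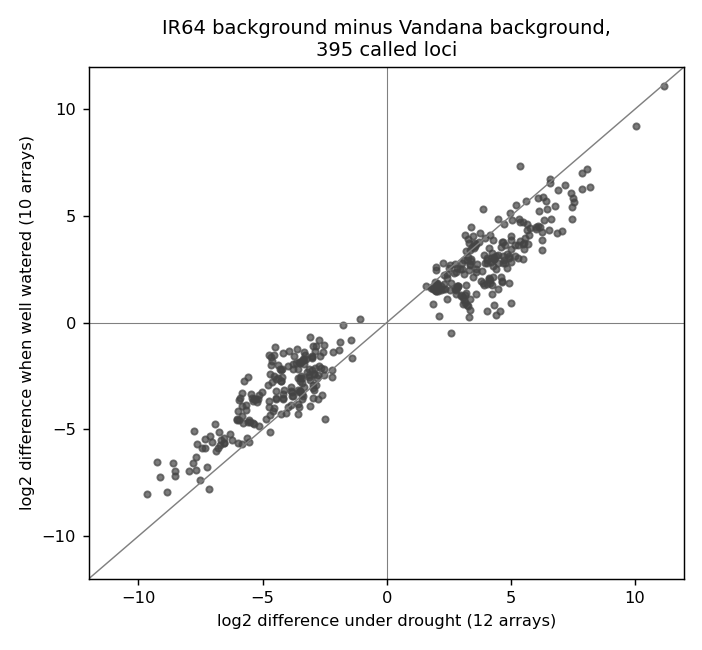
Log2 difference, IR64 background minus Vandana background, of the 395 called loci under drought (horizontal, 12 arrays) and when well watered (vertical, 10 arrays, leaving out that labelled Vandana replicate 2). The line marks equal differences. Of the points, 393 lie in the quadrants of equal sign.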

How the data were processed

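Cy3-labelled root RNA was hybridised to a custom 1-colour Agilent array designed on rice gene models (build IRGSP5 in the file headers). The deposited intensity is the background-corrected, processed signal of Agilent Feature Extraction (version 11.0 per the labels, 11.5.1.1 per the file headers). Control spots and spots marked as outliers (0 to 17 of 61657 spots per array) were left out, and spots of 1 probe were averaged on the log2 scale, which left 52901 probes for 52900 loci. No spot was saturated. Signals were quantile normalized over the 12 drought arrays. The number of arrays, not a read depth, limits the precision.

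The methods name quantile normalization, over 2-fold and Bonferroni-adjusted p below 0.05, but no test. limma 3.58.1 (R 4.3.3) fitted a mean per genotype, and the IR64 background was set against the Vandana background (two-sided, moderated). Single genes were tested with Benjamini-Hochberg adjustment over all probes. The authors also deposited normalized log2 values, used as an alternative. Their scale and centring are not given in the sources used here. Other alternatives were normalization over 23 arrays, a fit of all 23 arrays, a 75th percentile shift, normexp (on the median signal, offset 50), a filter on dim probes, the slide, replicate number or genotype as a block, IR64 against Vandana alone, each array left out and, added after seeing the data, the 4 arrays with high leaf markers left out.

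The members and gene lists were chosen with earlier results of these data known. Named were the 8 largest differences in each direction among called loci without overlap, the same among loci with a known function, list members past the threshold, loci of the 3 longest runs of neighbours (ties in chromosome order) and the qDTY12.1 genes. Loci are named by identifier, without coordinates. Lists have no test and are given by counts and medians. Scripts were tested on simulated data with the spread of these arrays. Of 100 changes of 2 log2 units, 31% were recovered by the Bonferroni rule and 68% by Benjamini-Hochberg adjustment. Of 100 changes of 4 log2 units, 69% and 96% were recovered. A list with 0 calls can therefore still hold genes that differ. Python 3.11.15, numpy 2.4.6, pandas 2.3.3 and matplotlib 3.10.9 were also used.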

Additional observations from a re-analysis of the deposited data

Results flagged for a closer look

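Among 84 groups of 6 arrays at named loci, 12 held an array far from the others by Dixon's criterion (95% level, gap to the nearest array over the whole range), which chance gives in about 1 of 20 groups. OsNAM Event 2 replicate 3 was the highest array of the IR64 background at LOC_Os05g46890 (2.83, next 1.12), LOC_Os05g46800 (2.72, next 1.49), LOC_Os11g29110 (1.75, next 1.37) and LOC_Os01g39670 (2.29, next 1.05). None of these signals was well above background. Vandana replicate 1 was the highest of the Vandana background at LOC_Os11g14544 (13.04, next 11.98), LOC_Os05g46890 (11.4, next 10.68), LOC_Os01g71540 (10.53, next 10.01) and OsDR12.1 (2.66, next 1.4). The remaining arrays were IR64 replicate 3 at LOC_Os05g10414 (12.73, next 13.62), IR64 replicate 2 at LOC_Os06g49930 (1.28, next 1.02), NIL-481-B replicate 2 at LOC_Os03g57799 (3.59, next 1.97) and NIL-481-B replicate 3 at LOC_Os11g29110 (8.75, next 9.92). Every one of these loci kept its call when each array was left out in turn by Benjamini-Hochberg adjustment.

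At LOC_Os03g48320 the difference between backgrounds under drought was closer to 0 than when well watered, by 2.48 on the log2 scale in the joint limma fit (adjusted p = 0.00747). The well-watered array labelled Vandana replicate 2 had a median level of 6.08 over the 206 loci called higher and of 1.69 over the 189 called lower. The well-watered arrays of the IR64 lines had 5.73 to 6.16 and 1.57 to 2.19, and the other well-watered arrays of the Vandana background had 1.6 to 2.12 and 6.17 to 6.48. It entered no drought result other than those normalized or fitted over 23 arrays.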

How the results depend on the processing

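Against 395 loci (206 higher, 189 lower) in the chosen setting, 238 (129 and 109) were called with normexp, 174 (92 and 82) with the slide as a block, 207 (111 and 96) for IR64 against Vandana alone, 709 (393 and 316) with the genotype as a random block (consensus correlation -0.142), 1973 (1077 and 896) by Benjamini-Hochberg adjustment, and 47 (28 and 19) without the 4 arrays with high leaf markers, a fit with 8 arrays. Leaving out 1 array gave 269 to 348 in all, 150 to 192 higher and 117 to 156 lower. The lower loci fell by over 1.5 times without NIL-481-B replicate 2 (117) and OsNAM Event 2 replicate 3 (119). When well watered, 0 loci were called, and 123 without the array labelled Vandana replicate 2. The other alternatives, apart from the replicate number as a block, stayed within 1.5 times, from 271 in the fit of all 23 arrays to 503 with the filter on dim probes. Of the 395 loci, 395 kept their sign with the slide as a block and with normexp, and 394 did for IR64 against Vandana, but only 258 still differed over 2-fold the same way with normexp, against 395 with the slide as a block and 392 for IR64 against Vandana. The causes of the changed counts were not tested.

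The paper describes sowing in randomized complete blocks, and the sources do not say whether replicate numbers stand for these blocks. Of 18 same-number pairs of arrays, 7 had residuals correlated above 0.1 (range -0.413 to 0.479). These values alone do not settle whether the numbers pair the arrays. With the replicate number as a block, 251 loci were called (141 higher, 110 lower). Of 965 values of 42 named loci under the alternatives, 932 kept their direction and side of the adjusted p threshold. Another 26 in 7 loci no longer passed it, 7 newly passed it and 0 turned round. These counts leave out the 2-fold part of the threshold, so a value counted as kept can lie under 2-fold. Of 276 list medians, 1 moved (qDTY12.1, 0.48 under normexp). Chromosome 11 had the highest share in 24 of 24 settings. Dim signals limit the size of a difference, since 14996 probes were well above background on 0 of 12 arrays.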
